A study of Mus musculus with 9 samples.

Results

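Genes of protein folding in the endoplasmic reticulum (ER), of export from it and of the unfolded protein response were followed in mouse intrathoracic adhesion tissue at day 0, day 3 and day 9 after talc. The set holds 36 of the 25652 genes in the authors' table and was taken by gene name, with no threshold on measured values, though with earlier results of these data known. It comprises 9 chaperones and co-chaperones, 4 disulfide isomerases, 3 stress sensors, 5 transcription factors, 5 genes of ER-associated degradation, 6 genes of translocation and vesicle transport, and 4 targets of the transcription factor Atf4. All but Ddit3 stood in the table under their own symbol. Ddit3 was found by its gene identifier, split there into 2 overlapping entries, and the entry with reads was used, the other being empty in all libraries. All 36 passed the filter on low counts and were tested.

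Secreted and membrane proteins enter the ER through the Sec61 channel, fold there with chaperones such as the Hsp70 protein BiP (Hspa5), gain disulfide bonds from isomerases, and leave in COPII-coated vesicles. Unfolded protein is sensed by Ire1 (Ern1), Perk (Eif2ak3) and Atf6. Ire1 splices the mRNA of Xbp1, Atf6 is cleaved to a transcription factor that raises chaperones, and Perk slows translation through eIF2α and lets Atf4 drive stress and amino acid genes such as Ddit3, Trib3, Asns and Chac1. Cells that lay down collagen carry a large secretory load, and collagen folding depends on P4hb, the isomerase that is also a subunit of prolyl 4-hydroxylase.

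The mice were wild type, and talc in 200 µL of saline, a dose of 2.0 g/kg, was injected across the diaphragm into the left chest. RNA was taken 30 min later (day 0), at day 3 or at day 9, and 3 poly(A)-selected libraries were sequenced for each day. They are numbered 1, 2 and 3 at day 0 and 1, 3 and 4 at day 3 and day 9. All 3 groups carried talc, so day 0 is the earliest time after the procedure and not an untreated control, and time since talc cannot be told apart from time since the injection. The labels state neither age nor sex, and do not say that the libraries of a day came from separate mice, and if they did not, the p-values reflect technical spread alone.

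Library totals were between 12769059 and 18701063 counts. The labels call the tissue adhesion between chest wall and lung, and its libraries held lung, muscle and connective tissue transcripts in unequal amounts. Summed over 7 alveolar type 2 markers, the lung signal was 4650 to 5101 CPM, which is the count relative to library size, at day 0, 159.6, 5536 and 100.3 CPM in day 3 replicates 1, 3 and 4, and 590.2 to 2581 CPM at day 9. Day 3 replicate 3 thus stood apart from the other day 3 libraries by its lung content. Replicate 1 of day 3 and of day 9 stood apart by 8 cartilage and bone markers, which summed to 314.8 to 709 CPM at day 0, to 1529, 90.6 and 165.1 CPM in day 3 replicates 1, 3 and 4, and to 2014, 294.6 and 147 CPM in day 9 replicates 1, 3 and 4. Of these 8, 1 rose at day 3 and none at day 9 over day 0 by edgeR, where 1 was higher at day 9 by DESeq2 and at an unadjusted p under 0.05 and 0 by limma-voom. Day 0 replicate 3 stood apart by cardiac muscle markers, with a sum of 666.5 CPM where the other libraries held 5.03 to 91.9 CPM. The largest sums were those of 7 skeletal muscle markers. They were 70020 to 93983 CPM at day 0, 40788 to 88168 CPM at day 3 and 49693 to 62713 CPM at day 9. None of the 7 passed by edgeR at either day over day 0, and 1 was lower at each by DESeq2. Airway markers, 3 in number, summed to 4959 to 5248 CPM at day 0 and 212.7 to 1754 CPM at day 9. In day 3 replicates 1, 3 and 4 their sums were 103.6, 7184 and 65.12 CPM. All 6 macrophage markers rose by edgeR at day 3 and at day 9, with summed levels of 234.3 to 281 CPM at day 0, 864.6 to 1188 CPM at day 3 and 1478 to 2571 CPM at day 9. Of 6 fibroblast markers, 1 rose and 1 fell at day 3 and 3 rose at day 9 over day 0, with sums of 4301 to 6443 CPM at day 0, 5036 to 11845 CPM at day 3 and 19079 to 21127 CPM at day 9. Of 4 plasma cell markers tested, none passed at either day by edgeR, limma-voom or DESeq2, and 1 at each day had an unadjusted p under 0.05. Their sum with Tnfrsf17, which was too low to test, was 100.6 to 186.5 CPM at day 0, 38.88 to 119.7 CPM at day 3 and 263.6 to 299.5 CPM at day 9. In such bulk libraries more cells of a type and more RNA per cell cannot be told apart, and the part of these cell type signals in the results below was not tested.

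Genes for folding and exporting proteins rose by day 3 and were still higher than at day 0 at day 9. At day 9 none of the 3 stress sensors and none of the 4 Atf4 targets among the 36 rose. With 15.2% of all genes higher at day 9, groups of 3 and 4 are too small for none to differ from that share. At day 3 over day 0, 20 of the 36 genes rose, against 12.9% of the 14794 genes tested, and 1 fell, against 3.29%. At day 9 over day 0, 22 rose, against 15.2% of all genes, and 3 fell, against 5.54%. Between day 9 and day 3, 1 gene rose, against 5.19%, and none fell by edgeR, against 3.66%, with 3 lower at an unadjusted p under 0.05, 0 lower by limma-voom and 2 by DESeq2. A difference between any days was called for 23 of the 36, against 25.7% of all genes. The threshold was 0.05 for the p of the edgeR quasi-likelihood test, adjusted by Benjamini-Hochberg over all genes tested.

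The median log2 fold change of the 36 genes was 0.57 at day 3 over day 0, where that of all genes tested was 0.05. It was 0.52 at day 9 over day 0, against 0.01 for all genes, and 0.03 at day 9 over day 3, against -0.04. The day 3 count depended on single day 0 libraries: 10 genes rose without day 0 replicate 1 and 11 without day 0 replicate 2, where 17 to 22 rose at day 9 over day 0 whichever library was left out. The count of all genes higher at day 3 also fell, from 1904 of 14794 to 687 of 14942 and 786 of 14938 in those 2 fits. This loss of calls was thus not particular to the 36 genes. Without day 3 replicate 3, the library rich in lung transcripts, 20 of the 36 genes rose and 3 fell at day 3. Creb3l2 and Herpud1 then joined Ppp1r15a among the lower ones. In the same fit 22 rose and 3 fell at day 9 over day 0. Of all 14977 genes in that fit, 2555 rose and 2624 fell at day 3, and 2797 rose and 2221 fell at day 9, both over day 0. The members that fell were thus not above the share of all genes. Without day 3 replicate 1, rich in cartilage and bone transcripts, 20 of the 36 genes rose and 1 fell at day 3, and 22 rose and 3 fell at day 9, both over day 0. Without day 9 replicate 1 the counts were 18 and 1 and 17 and 2. Over all genes they were 1580 and 613 and 2289 and 1115 without day 3 replicate 1, and 1264 and 427 and 1641 and 367 without day 9 replicate 1.

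**Figure D1:**
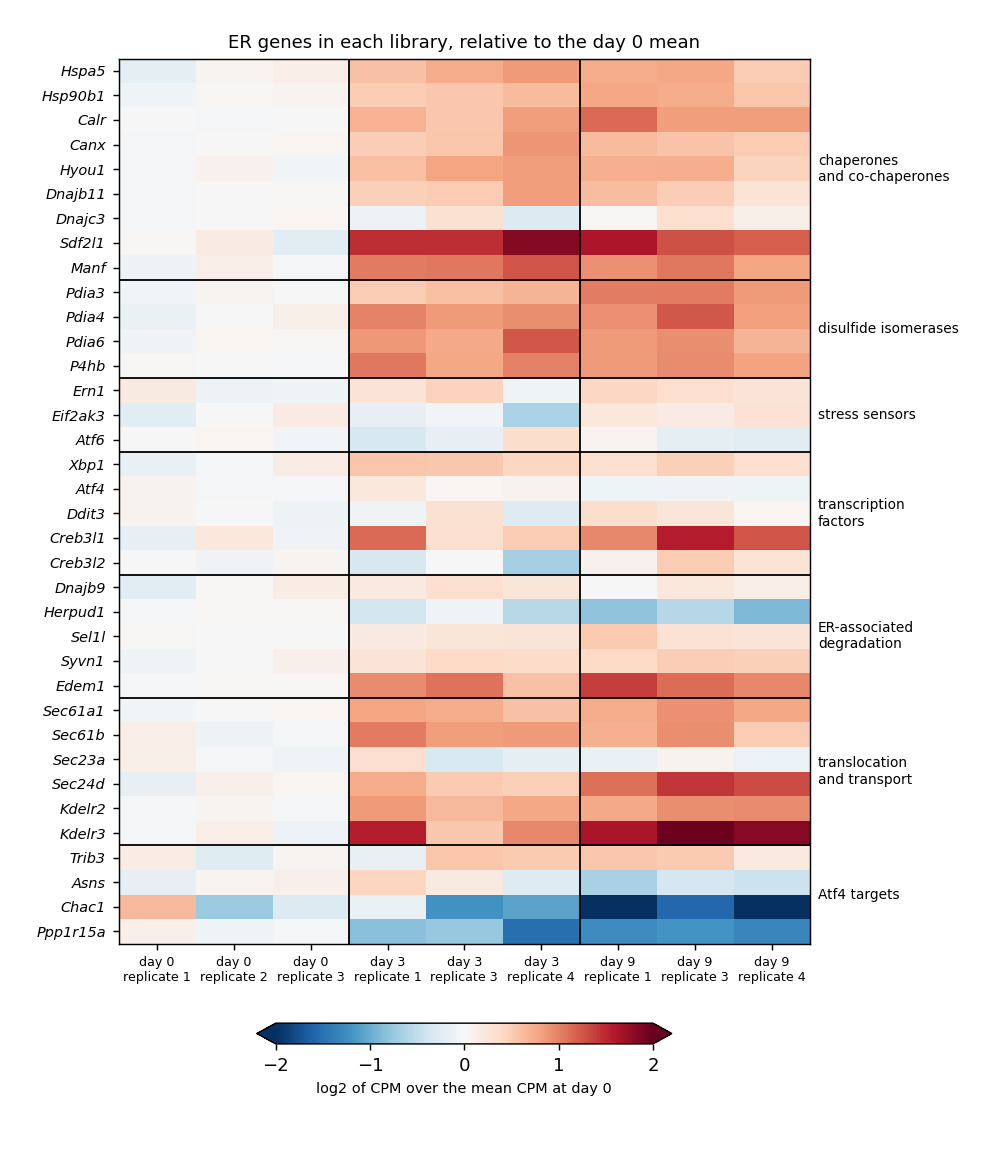
Heat map of the 36 genes (rows, grouped by role) in each of the 9 libraries (columns), coloured by the log2 of CPM over the mean CPM at day 0, with colours ending at 2 and -2. The chaperone, isomerase and transport rows are red in nearly every day 3 and day 9 library, and the rows of Herpud1, Chac1 and Ppp1r15a turn blue.

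Of the 9 chaperones and co-chaperones, 8 rose at day 3 and the same 8 at day 9 over day 0, against 12.9% and 15.2% of all genes. Dnajc3 did not pass in either comparison. Hspa5, which encodes BiP, the main Hsp70 chaperone of the ER, stood at 358, 428 and 451 CPM in day 0 replicates 1, 2 and 3, at 619, 687 and 747.5 CPM in day 3 replicates 1, 3 and 4, and at 689, 701 and 584 CPM in day 9 replicates 1, 3 and 4. Every day 3 and day 9 library lay above every day 0 library, and the day 3 and day 9 libraries overlapped. The fold was 1.66 at day 3 over day 0 (log2 0.73 ± 0.15 SE, adjusted p = 0.0145) and 1.60 at day 9 over day 0 (log2 0.67 ± 0.15, adjusted p = 0.0139). These calls were lost without day 0 replicate 1 or 2, and at day 9 also without day 9 replicate 1 or 3, with log2 values between 0.58 and 0.80 whichever library was left out.

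The promoter of Hspa5 carries a classic ER stress element, to which ATF6 binds together with the factor NF-Y. It is shown because the same element also stood upstream of Hsp90b1, Calr and Canx, chaperones that rose. The 250 bases upstream of the start of Hspa5, chr2:34771840-34772089 on the plus strand of GRCm38.p6 from RefSeq, run 5′ to 3′ with the element in capitals.
Hspa5 upstream: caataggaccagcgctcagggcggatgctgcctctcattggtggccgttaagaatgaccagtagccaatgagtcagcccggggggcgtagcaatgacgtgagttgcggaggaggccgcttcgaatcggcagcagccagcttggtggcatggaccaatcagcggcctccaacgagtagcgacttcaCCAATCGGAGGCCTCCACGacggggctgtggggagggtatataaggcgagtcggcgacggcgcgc

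The element was searched on both strands of these 250 bases as CCAAT, any 9 bases and CCACG, and 30 of the 36 genes have an entry in the RefSeq promoter table. It stood in 7 of the 30, against 0.113% of all 32851 promoters in the table. Because the members were picked as genes of this response, that excess is not a test. Of the other chaperones that rose, Sdf2l1 and Dnajb11 lacked the element, and Hyou1 and Manf have no entry. Of these 7 genes, 6 rose at day 3 and the same 6 at day 9 over day 0, and Dnajc3 did not pass. The 23 members without the element included 10 that rose and 1 that fell at day 3, and 11 that rose and 3 that fell at day 9. Of all genes, 12.9% rose and 3.29% fell at day 3, and 15.2% rose and 5.54% fell at day 9. A match is a description of letters, not evidence of binding. The sites are given 5′ to 3′ on their own strand, with the fixed letters in capitals, and their positions count bases before the start, those of Calr and the second of Hsp90b1 being on the opposite strand to the gene.
Hspa5, bases 65 to 47: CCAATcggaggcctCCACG
Hsp90b1, bases 212 to 194: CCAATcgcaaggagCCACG
Hsp90b1, bases 107 to 89: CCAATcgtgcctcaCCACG
Calr, bases 162 to 144: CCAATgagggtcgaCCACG
Canx, bases 145 to 127: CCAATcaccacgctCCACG
Pdia6, bases 98 to 80: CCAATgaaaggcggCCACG
Dnajc3, bases 105 to 87: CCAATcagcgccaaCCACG
Syvn1, bases 44 to 26: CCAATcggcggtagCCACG
Within the 9 free bases the sites differ, and Hsp90b1 is the gene among them with a site on either strand.

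Hsp90b1, which encodes the ER Hsp90 protein GRP94 and holds both of those sites, had a mean of 553 ± 25.0 CPM at day 3, against 375 ± 20.3 CPM at day 0 (SD, n = 3 each). At day 9 it averaged 605 ± 46.7 CPM, 1.61-fold above day 0 (log2 0.69 ± 0.12 SE, adjusted p = 0.00478 by edgeR). Its whole upstream window, chr10:86705445-86705694 on the minus strand of GRCm38.p6, is given for the spacing of the sites, which are in capitals.
Hsp90b1 upstream: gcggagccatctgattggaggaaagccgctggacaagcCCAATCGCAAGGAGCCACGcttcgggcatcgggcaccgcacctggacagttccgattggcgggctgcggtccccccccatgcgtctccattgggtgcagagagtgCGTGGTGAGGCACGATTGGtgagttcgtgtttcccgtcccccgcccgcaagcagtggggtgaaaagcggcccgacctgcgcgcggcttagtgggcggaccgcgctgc

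Calr and Canx encode the lectin chaperones calreticulin and calnexin, which hold newly glycosylated proteins. Calr stood at 375, 369 and 375.5 CPM in day 0 replicates 1, 2 and 3, at 604.5, 541 and 663 CPM in day 3 replicates 1, 3 and 4, and at 815, 662 and 667.5 CPM in day 9 replicates 1, 3 and 4. The day 0 libraries were close together, all day 3 and day 9 libraries were above them, and day 9 replicate 1 was the highest. Calr was 1.62-fold higher at day 3 than at day 0 (adjusted p = 0.0136) and 1.92-fold higher at day 9 than at day 0 (adjusted p = 0.00215). Canx was 1.57-fold and 1.49-fold higher at day 3 and at day 9 than at day 0. At day 3, the calls of Hsp90b1, Calr and Dnajb11 were lost without any 1 of the day 0 libraries, and that of Canx without day 0 replicate 1 or 2. At day 3 over day 0, 3 chaperones passed without day 0 replicate 1 or 2 and 5 without day 0 replicate 3, and at day 9 over day 0, 5 passed when day 0 replicate 1 or 2, or day 9 replicate 1 or 3, was left out.

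The largest rises among the chaperones at day 3 over day 0 were those of Sdf2l1 and Manf. Sdf2l1 is a partner of the BiP co-chaperones that rises with ER stress in cultured cells. Manf is a secreted ER stress factor that binds BiP. Sdf2l1 stood at 11.6, 12.7 and 9.79 CPM in day 0 replicates 1, 2 and 3, at 31.5, 31.7 and 40.7 CPM in day 3 replicates 1, 3 and 4, and at 35.0, 27.5 and 26.1 CPM in day 9 replicates 1, 3 and 4. No day 3 or day 9 library came near the day 0 range. The fold was 3.04 at day 3 over day 0 (log2 1.61 ± 0.17 SE, adjusted p = 0.000949) and 2.60 at day 9 over day 0 (log2 1.38 ± 0.17, adjusted p = 0.000929). Manf had a mean of 97.0 ± 8.18 CPM at day 3, against 44.7 ± 3.77 CPM at day 0, a 2.17-fold rise (adjusted p = 0.0008), and was 1.90-fold above day 0 at day 9. Sdf2l1 and Manf were the only members called at day 3 over day 0 under each of the 15 alternative settings.

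Hyou1, a nucleotide exchange factor for BiP, rose 1.68-fold at day 3 and 1.55-fold at day 9, both over day 0. Dnajb11, a J-domain co-chaperone of BiP, rose 1.53-fold and 1.39-fold in the same comparisons, the second of which was lost without day 9 replicate 1 or 3 or any single day 0 library. Dnajc3, known as P58IPK, a J-domain co-chaperone that in cells can restrain Perk, was the exception. It stood at 111, 115 and 117 CPM in day 0 replicates 1, 2 and 3, at 106, 142 and 94.6 CPM in day 3 replicates 1, 3 and 4, and at 117, 145 and 124 CPM in day 9 replicates 1, 3 and 4. The highest day 3 value was that of replicate 3, the groups overlapped, and the adjusted p was 0.992 at day 3 and 0.477 at day 9 over day 0.

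All 4 disulfide isomerases rose at day 3 and at day 9 over day 0, against 12.9% and 15.2% of all genes. P4hb, which makes disulfide bonds and holds prolyl 4-hydroxylase together, stood at 304, 302.5 and 294 CPM in day 0 replicates 1, 2 and 3, at 623, 512 and 603 CPM in day 3 replicates 1, 3 and 4, and at 543, 581 and 524 CPM in day 9 replicates 1, 3 and 4. The lowest later library was far above the highest day 0 library. Its fold was 1.93 at day 3 over day 0 (log2 0.95 ± 0.12 SE, adjusted p = 0.00219) and 1.83 at day 9 over day 0 (log2 0.87 ± 0.12, adjusted p = 0.00173). Pdia6, an isomerase found with BiP, rose 1.97-fold at day 3 and 1.77-fold at day 9, and Pdia4, a BiP-associated isomerase, rose 1.90-fold and 2.01-fold.

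Pdia3, which works on glycoproteins with calreticulin and calnexin, had a mean of 220 ± 7.82 CPM at day 0, 333 ± 19.3 CPM at day 3 and 432 ± 28.7 CPM at day 9 (SD, n = 3 each). Its day 9 libraries were all above its day 3 libraries, by 1.30-fold, and the adjusted p of that step was 0.0691 by edgeR. It was 0.000698 by DESeq2 and 0.0245 by edgeR without day 3 replicate 3. The step over day 0 passed at both times, with adjusted p = 0.0103 at day 3, which was lost without day 0 replicate 1, and 0.000633 at day 9.

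**Figure D2:**
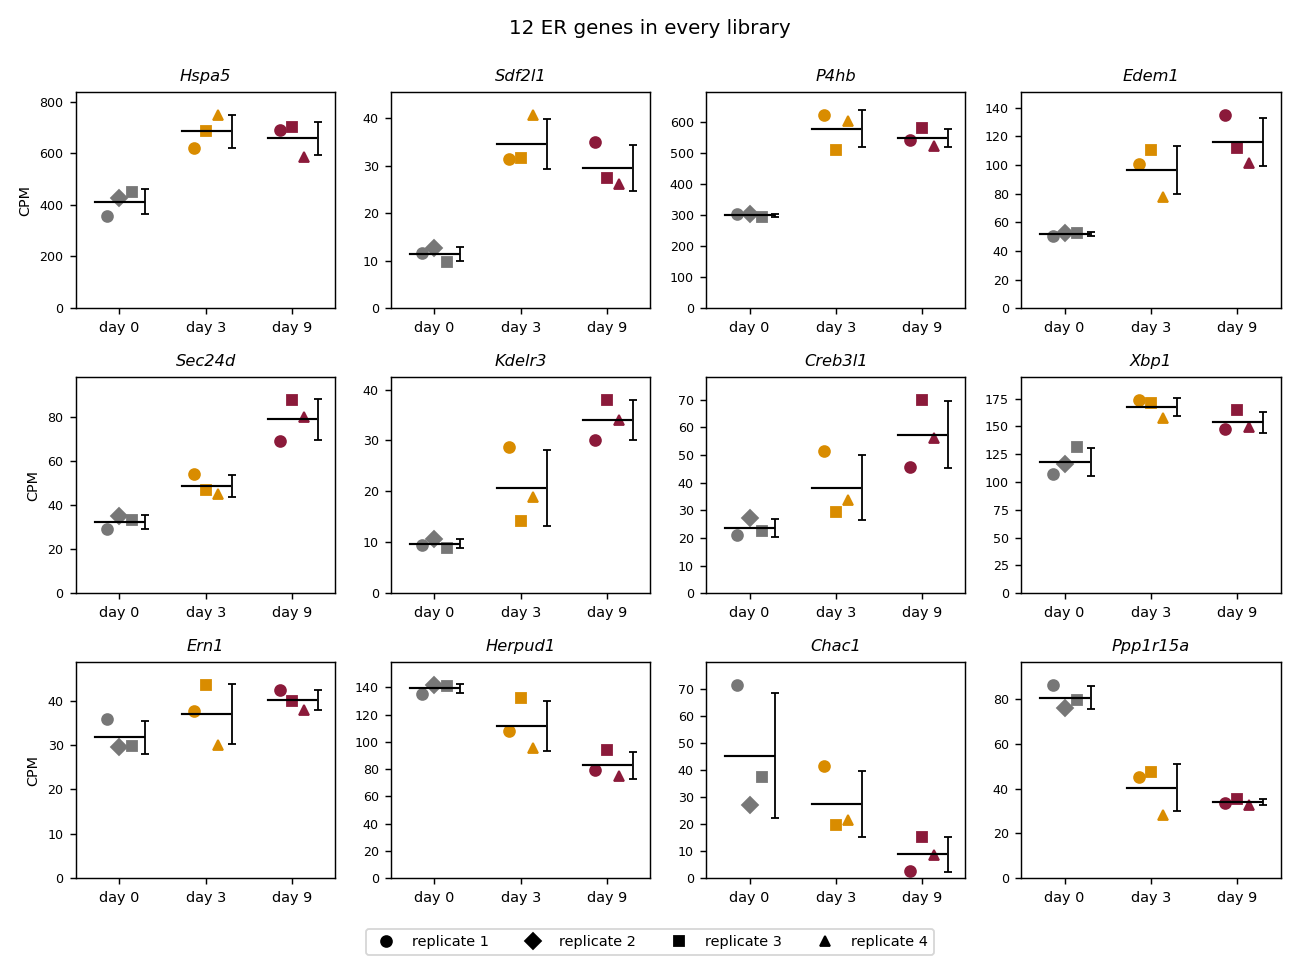
CPM of 12 of the genes in every library (points, with shape for the replicate number), with the mean as a line and an error bar of 1 SD for each day. Folding and transport genes sit higher at day 3 and day 9, the sensor Ern1 overlaps at day 3, and Herpud1, Chac1 and Ppp1r15a sit lower at day 9.

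Of the 6 genes of translocation and vesicle transport, 5 rose at day 3 and the same 5 at day 9 over day 0. The shares of all genes were 12.9% and 15.2%. Sec23a, a coat protein of COPII vesicles, did not pass. The day 3 count was 3 without any 1 of the day 0 libraries. Sec61a1, the pore of the translocation channel, had a mean of 146 ± 10.5 CPM at day 3, against 89.4 ± 3.02 CPM at day 0, a 1.63-fold rise (adjusted p = 0.00339), and was 1.76-fold above day 0 at day 9 (adjusted p = 0.000946). Sec61b, a small subunit of the same channel, rose 1.88-fold at day 3 and 1.66-fold at day 9. Sec23a had a mean of 81.8 ± 6.48 CPM at day 0, 80.5 ± 19.9 CPM at day 3 and 78.8 ± 6.36 CPM at day 9, with day 3 replicate 1 the highest of its libraries at 103 CPM.

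Sec24d, a cargo-binding coat protein of COPII vesicles that zebrafish need to export collagen from cartilage cells, was the 1 gene of the 36 that rose again between day 3 and day 9. It stood at 29.0, 35.0 and 33.55 CPM in day 0 replicates 1, 2 and 3, at 54.4, 46.8 and 45.2 CPM in day 3 replicates 1, 3 and 4, and at 69.4, 87.85 and 80.4 CPM in day 9 replicates 1, 3 and 4. The 3 days formed 3 steps without overlap. Its fold was 1.50 at day 3 over day 0 (log2 0.59 ± 0.13 SE, adjusted p = 0.0184), 2.44 at day 9 over day 0 (log2 1.28 ± 0.13, adjusted p = 0.000402) and 1.62 at day 9 over day 3 (log2 0.70 ± 0.13, adjusted p = 0.0163). The step after day 3 was lost without day 9 replicate 3 or 4, and the step at day 3 without day 9 replicate 4 or any single day 0 library. Without day 3 replicate 3 as many as 6 of the 36 genes rose after day 3, and without day 3 replicate 1 there were 3. Those fits called 2450 of 14977 and 631 of 14930 genes higher, so the count of 6 was near the share of all genes.

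Kdelr2 and Kdelr3 encode receptors that return escaped ER proteins, BiP among them, from the Golgi. Kdelr3 stood at 9.48, 10.7 and 8.95 CPM in day 0 replicates 1, 2 and 3, at 28.8, 14.1 and 18.9 CPM in day 3 replicates 1, 3 and 4, and at 30.1, 37.9 and 34.1 CPM in day 9 replicates 1, 3 and 4. Day 3 was the most scattered group, its replicate 1 close to the day 9 range. The fold was 2.12 at day 3 over day 0 (log2 1.09 ± 0.24 SE, adjusted p = 0.0199), a call lost without any 1 of the day 0 libraries, and 3.51 at day 9 over day 0 (log2 1.81 ± 0.24, adjusted p = 0.00139), the largest rise of the 36 genes at day 9. Without day 3 replicate 1, the library with the high cartilage and bone sum, the log2 fold change was 0.77 at day 3 over day 0 (adjusted p = 0.0263) and 1.05 at day 9 over day 3 (adjusted p = 0.0186), where the second was 0.72 with all libraries (adjusted p = 0.0927). Kdelr2 rose 1.69-fold at day 3 and 1.84-fold at day 9.

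Sec24d and Kdelr3 were also the 2 members whose upstream 250 bases held TGACGTGG, the unfolded protein response element bound by spliced XBP1 and ATF6, searched on both strands. It stood in 0.563% of all promoters in the table and overlapped none of the other motifs found in these members. The windows are shown because both genes rose. That of Sec24d is chr3:123267246-123267495 and that of Kdelr3 is chr15:79516158-79516407, both on the plus strand of GRCm38.p6 from RefSeq, with the motif in capitals, on the opposite strand in Kdelr3.
Sec24d upstream: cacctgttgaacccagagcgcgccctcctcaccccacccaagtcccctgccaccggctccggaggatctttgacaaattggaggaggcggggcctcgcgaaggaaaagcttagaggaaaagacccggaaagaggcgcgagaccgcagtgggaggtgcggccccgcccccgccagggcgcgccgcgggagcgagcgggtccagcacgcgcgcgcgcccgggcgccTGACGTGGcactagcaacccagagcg
Kdelr3 upstream: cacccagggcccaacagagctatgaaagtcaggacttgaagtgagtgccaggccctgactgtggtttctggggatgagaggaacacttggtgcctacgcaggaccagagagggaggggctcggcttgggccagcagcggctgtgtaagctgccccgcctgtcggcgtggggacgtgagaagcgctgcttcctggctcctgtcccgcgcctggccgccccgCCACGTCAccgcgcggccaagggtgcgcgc

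ER-associated degradation, the route by which misfolded protein is drawn out of the ER and destroyed, was divided. Edem1, a lectin that passes misfolded glycoproteins to it, stood at 50.4, 52.5 and 52.8 CPM in day 0 replicates 1, 2 and 3, at 100.4, 111 and 77.9 CPM in day 3 replicates 1, 3 and 4, and at 135, 112 and 101 CPM in day 9 replicates 1, 3 and 4. All later libraries were above day 0, and day 3 replicate 4 was the lowest of them. Edem1 rose 1.86-fold at day 3 (adjusted p = 0.00757) and 2.24-fold at day 9 (adjusted p = 0.0013), both over day 0. Syvn1, the ubiquitin ligase Hrd1, was 1.26-fold higher at day 3 (adjusted p = 0.0367), a call that held in the fit without day 3 replicate 1 and in none of the other 8 that left out a library. It was 1.37-fold higher at day 9 than at day 0 (adjusted p = 0.00881). Its partner Sel1l passed at day 9 over day 0 (1.29-fold, adjusted p = 0.0361) but not without any single library of day 0 or day 9. Dnajb9, a co-chaperone that in cultured cells returns Ire1 to its inactive state, had a mean of 36.7 ± 4.54 CPM at day 0, 43.8 ± 2.16 CPM at day 3 and 39.9 ± 2.63 CPM at day 9 and did not pass.

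Herpud1, a membrane protein of the Hrd1 complex that is induced strongly by ER stress in cultured cells, moved the other way. It stood at 135, 141 and 141 CPM in day 0 replicates 1, 2 and 3, at 108, 132 and 95.2 CPM in day 3 replicates 1, 3 and 4, and at 79.7, 93.9 and 75.1 CPM in day 9 replicates 1, 3 and 4. Every later library was below every day 0 library, and every day 9 library was below every day 3 library. It was 1.68-fold lower at day 9 than at day 0 (log2 -0.75 ± 0.14 SE, adjusted p = 0.00701). At day 3 over day 0 its log2 fold change was -0.32 ± 0.14 (adjusted p = 0.152), and -0.52 without day 3 replicate 3 (adjusted p = 0.0127).

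Herpud1 is shown because it is the 1 member whose upstream 250 bases held 2 kinds of motif searched. One is the ER stress element II, searched as ATTGG, any 1 base and CCACG, which stood in 0.0304% of all promoters. The other is TGATG, any base and AA, the amino acid response element bound by ATF4, which stood in 3.45% of all promoters and also in those of the members Chac1 and Asns. Of these 3 genes, none rose by edgeR at day 3 or day 9, also at an unadjusted p under 0.05 or by limma-voom or DESeq2, and 2 fell at day 9 over day 0. Of all genes, 12.9% rose at day 3, and 15.2% rose and 5.54% fell at day 9. With 3 genes, none rising cannot differ from those shares, and a link between the motif and the falls was not tested. The windows of Herpud1, chr8:94386179-94386428, and of Chac1, chr2:119350992-119351241, are both on the plus strand of GRCm38.p6 from RefSeq. Capitals mark the motifs, with the amino acid response elements on the opposite strand.
Herpud1 upstream: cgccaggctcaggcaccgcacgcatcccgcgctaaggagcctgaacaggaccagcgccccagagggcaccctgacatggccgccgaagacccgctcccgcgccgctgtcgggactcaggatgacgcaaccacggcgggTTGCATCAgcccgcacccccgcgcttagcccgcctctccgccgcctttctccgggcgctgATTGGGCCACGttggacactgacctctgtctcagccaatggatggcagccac
Chac1 upstream: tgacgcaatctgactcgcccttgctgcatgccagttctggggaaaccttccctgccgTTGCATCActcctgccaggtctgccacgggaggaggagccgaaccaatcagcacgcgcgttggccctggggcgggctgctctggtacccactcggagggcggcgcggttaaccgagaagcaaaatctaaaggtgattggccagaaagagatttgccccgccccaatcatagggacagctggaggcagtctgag

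Among the 5 transcription factors, Xbp1, the factor activated by Ire1 splicing and needed by secretory cells, rose at day 3 and at day 9. It stood at 107, 116 and 131.5 CPM in day 0 replicates 1, 2 and 3, at 174, 171 and 158 CPM in day 3 replicates 1, 3 and 4, and at 148, 164.5 and 149 CPM in day 9 replicates 1, 3 and 4. The day 0 libraries were the lowest, and the step was small. The fold was 1.42 at day 3 (adjusted p = 0.0201) and 1.30 at day 9 (adjusted p = 0.0434), both over day 0. The call was lost when day 0 replicate 1 or 2 was left out, or day 9 replicate 1 or 4, and at day 9 also without day 9 replicate 3. Gene counts do not separate spliced from unspliced Xbp1.

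Creb3l1, known as OASIS, a membrane-bound factor that drives collagen genes in mouse bone, stood at 21.0, 27.3 and 22.35 CPM in day 0 replicates 1, 2 and 3, at 51.45, 29.4 and 33.55 CPM in day 3 replicates 1, 3 and 4, and at 45.7, 69.8 and 56.3 CPM in day 9 replicates 1, 3 and 4. All later libraries were above day 0, and the high day 3 library was replicate 1, that with the high cartilage and bone sum. It was 2.43-fold higher at day 9 than at day 0 (log2 1.28 ± 0.24 SE, adjusted p = 0.00647) and had a log2 fold change of 0.70 ± 0.24 at day 3 over day 0 (adjusted p = 0.0779, and 0.0297 without day 3 replicate 3). Without day 3 replicate 1 that value was 0.42 (adjusted p = 0.193), and at day 9 over day 3 Creb3l1 then passed (log2 0.86, adjusted p = 0.0473). Creb3l2, a related factor that raises Sec23a in mouse cartilage, had a mean of 78.6 ± 3.20 CPM at day 0, 63.7 ± 14.7 CPM at day 3 and 96.8 ± 14.3 CPM at day 9 and did not pass in any comparison. Its log2 fold change was -0.30 at day 3 over day 0 (adjusted p = 0.26), and -0.55 without day 3 replicate 3 (adjusted p = 0.0236). At day 9 over day 3 it was 0.60 (adjusted p = 0.0686), with 0.012 by DESeq2.

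Atf4 and Ddit3, the factors downstream of Perk, did not pass in any comparison. Atf4 had a mean of 158 ± 6.74 CPM at day 0, 171 ± 11.4 CPM at day 3 and 149 ± 1.63 CPM at day 9, with a log2 fold change of 0.11 ± 0.10 at day 3 over day 0 (adjusted p = 0.448). Ddit3, which encodes CHOP, a factor linked to cell death under lasting ER stress, stood at 17.0, 16.2 and 15.0 CPM in day 0 replicates 1, 2 and 3, at 15.1, 19.9 and 13.5 CPM in day 3 replicates 1, 3 and 4, and at 20.6, 19.1 and 16.6 CPM in day 9 replicates 1, 3 and 4. The 3 days overlapped. Its log2 fold change was 0.01 ± 0.16 at day 3 and 0.22 ± 0.16 at day 9 over day 0, and the sign at day 3 turned under other size factors, to -0.05. Atf4 acts largely through translation, which RNA counts do not measure.

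None of the 3 stress sensors passed by edgeR at day 3 or day 9 over day 0, and none had an unadjusted p under 0.05 or passed by limma-voom or DESeq2. Of all genes, 12.9% rose at day 3 and 15.2% at day 9, and 3 genes are too few for none to differ from those shares. Ern1 stood at 35.9, 29.5 and 29.8 CPM in day 0 replicates 1, 2 and 3, at 37.7, 43.4 and 29.9 CPM in day 3 replicates 1, 3 and 4, and at 42.3, 40.0 and 37.8 CPM in day 9 replicates 1, 3 and 4. The day 9 libraries were above the day 0 libraries, and the day 3 libraries overlapped both. Its log2 fold change was 0.22 ± 0.15 at day 3 (adjusted p = 0.322) and 0.34 ± 0.15 at day 9 (adjusted p = 0.144), both over day 0, and the day 9 value gave 0.0323 in a fit of the day 0 and day 9 libraries alone. Eif2ak3 had a mean of 26.1 ± 3.35 CPM at day 0, 21.7 ± 4.37 CPM at day 3 and 30.3 ± 1.35 CPM at day 9. Its day 9 libraries were all above its day 3 libraries, with a log2 fold change of 0.48 ± 0.16 (adjusted p = 0.105) that passed by DESeq2 (adjusted p = 0.044) and by edgeR without day 3 replicate 3 (adjusted p = 0.0239). Atf6 had a mean of 72.4 ± 2.44 CPM at day 0, 71.8 ± 18.4 CPM at day 3 and 66.9 ± 7.50 CPM at day 9. A p that misses the threshold does not show that the sensors were equal between days.

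**Figure D3:**
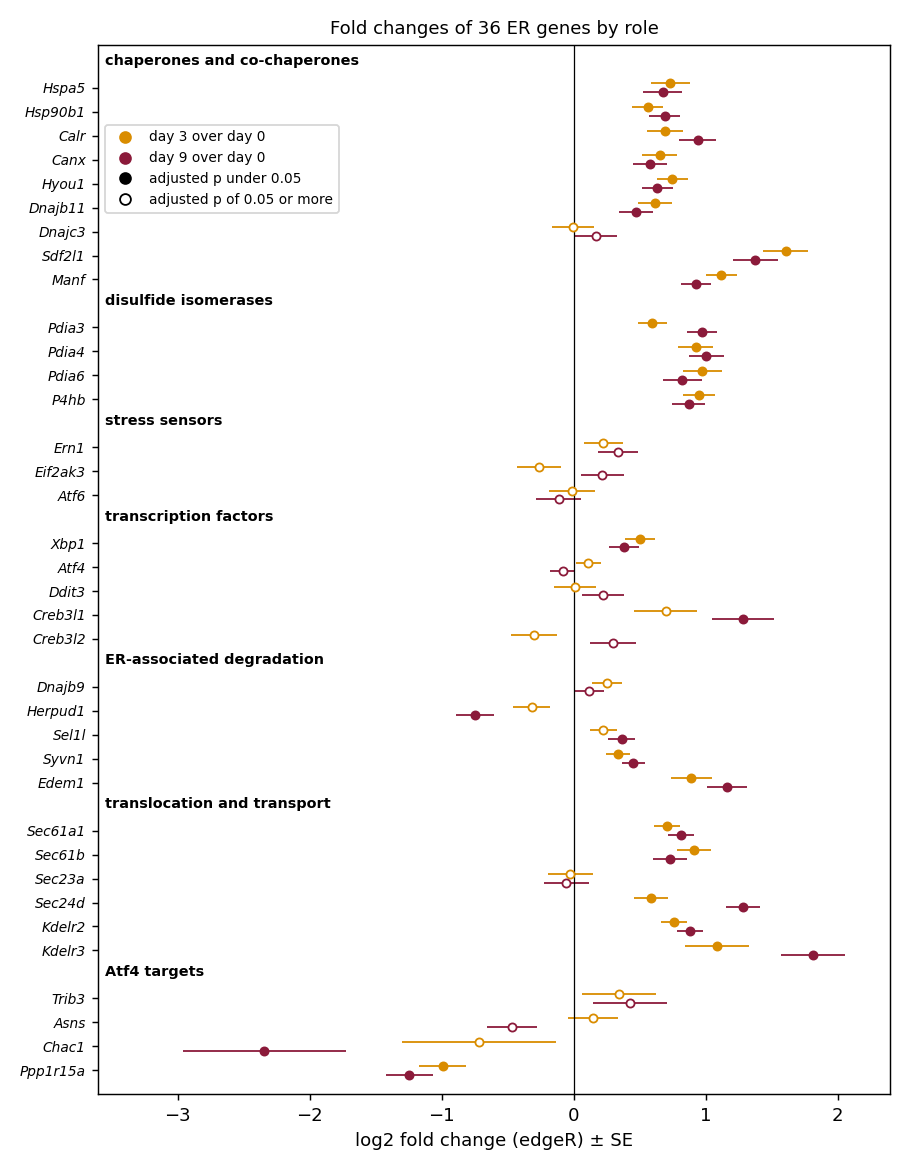
Log2 fold change (x axis) of each of the 36 genes, grouped by role, at day 3 over day 0 and day 9 over day 0, with 1 SE as the bar and filled points where the edgeR adjusted p is under 0.05. Filled points lie to the right for folding and transport and to the left for Herpud1, Chac1 and Ppp1r15a, and the sensors have open points.

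The 4 Atf4 targets among the 36 were lower at day 9 or did not pass. Ppp1r15a, which encodes GADD34, the phosphatase subunit that reverses the Perk signal on eIF2α, stood at 85.9, 75.9 and 79.3 CPM in day 0 replicates 1, 2 and 3, at 45.1, 47.5 and 28.4 CPM in day 3 replicates 1, 3 and 4, and at 33.75, 35.3 and 32.7 CPM in day 9 replicates 1, 3 and 4. The day 0 libraries were well above all others, and day 3 and day 9 overlapped. It was 1.99-fold lower at day 3 than at day 0 (log2 -0.99 ± 0.18 SE, adjusted p = 0.00893) and 2.37-fold lower at day 9 than at day 0 (adjusted p = 0.00192), and both calls held whichever library was left out.

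Chac1, which encodes an enzyme that breaks down glutathione, stood at 71.3, 27.2 and 37.6 CPM in day 0 replicates 1, 2 and 3, at 41.5, 19.6 and 21.6 CPM in day 3 replicates 1, 3 and 4, and at 2.61, 15.3 and 8.59 CPM in day 9 replicates 1, 3 and 4. The libraries of each day were widely scattered, and the day 9 libraries were all below the day 0 libraries. It was 5.08-fold lower at day 9 than at day 0 (adjusted p = 0.0286), the largest change of the 36 genes. The log2 fold change of -2.35 ± 0.62 SE was between -3.02, without day 9 replicate 3, and -1.86, without day 0 replicate 1. Leaving out day 0 replicate 1 or 3 lost the call, as did leaving out day 9 replicate 1 or 4.

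Asns, asparagine synthetase, had a mean of 12.6 ± 1.22 CPM at day 0, 13.9 ± 3.23 CPM at day 3 and 9.09 ± 0.951 CPM at day 9. Every day 9 library was below every day 0 and day 3 library, with adjusted p = 0.118 over day 0 and 0.0824 over day 3. Both passed without day 3 replicate 4, with 0.0473 and 0.0338. Trib3, a pseudokinase that dampens Atf4, was the least abundant of the 36 genes on every day and did not pass. Its means were 2.43 ± 0.329 CPM at day 0, 3.09 ± 0.787 CPM at day 3 and 3.27 ± 0.435 CPM at day 9. Unlike Asns, its day 9 libraries were all above its day 0 libraries, with a log2 fold change of 0.43 ± 0.28 SE (adjusted p = 0.308 by edgeR).

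Levels between genes were compared in TPM, the authors' length-scaled unit. At day 0 the highest of the 36 was Hspa5 at 401 ± 57.1 TPM, followed by Hsp90b1 at 365 ± 29.5 TPM and Calr at 362 ± 13.2 TPM. At day 9 Calr was first at 739.5 ± 62.8 TPM, followed by Hspa5 at 681 ± 51.8 TPM and Hsp90b1 at 626 ± 30.1 TPM, and the SDs of neighbours in this order overlapped. The sensors lay far lower on each day, between 21.9 TPM for Eif2ak3 at day 3 and 70.9 TPM for Atf6 at day 3. Summed over the 3 sensors, the level was 124.3, 125.3 and 129.6 TPM at day 0, 112, 152.4 and 126.2 TPM at day 3, and 146.9, 138.4 and 140.9 TPM at day 9, by ascending replicate number.

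Summed over the 13 chaperones and isomerases, the level was 2165, 2326 and 2460 TPM in the day 0 libraries, 3536, 4281 and 3827 TPM in the day 3 libraries, and 4226, 4373 and 4016 TPM in the day 9 libraries. The day 0 libraries lay below all others, and the day 3 and day 9 ranges overlapped. Per sensor transcript, as ratios of summed TPM, folding transcripts numbered 17.4 to 19.0 in the day 0 libraries, 28.1 to 31.6 in the day 3 libraries and 28.5 to 31.6 in the day 9 libraries. The 4 Atf4 targets together held 113.4 to 162.4 TPM at day 0, 57.93 to 99.34 TPM at day 3 and 47.66 to 66.72 TPM at day 9. No test was made of these sums and ratios.

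Matrix proteins are the main cargo of this pathway in fibroblasts. Of 20 secreted matrix genes, 4 rose and 2 fell at day 3 over day 0, against 12.9% and 3.29% of all genes, with a median log2 fold change of -0.05. The number lower at day 3 was 0 without day 0 replicate 1 or 2, 1 without day 3 replicate 4 or day 9 replicate 3 or 4, and 4 without day 3 replicate 1. Over day 0, 18 rose at day 9, against 15.2% of all genes, and none fell by edgeR, with a median of 1.51, and none fell also at an unadjusted p under 0.05 or by limma-voom or DESeq2. At day 9 over day 3, 15 rose, against 5.19% of all genes, and none fell by any of these counts, with a median of 1.50. Leaving out 1 library gave 14 to 19 higher at day 9 over day 0 and 10 to 16 at day 9 over day 3, and 1 fell in the second comparison without day 9 replicate 3. Col3a1, a fibrillar collagen, was 5.91-fold higher at day 9 than at day 0, and Eln, elastin, was 12.4-fold higher at day 9 than at day 3. Among the 4 that rose at day 3 were Timp1, an inhibitor of matrix proteases, and Fn1, fibronectin, by 16.5-fold and 3.10-fold.

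The summed level of these 20 genes was 14843, 16147 and 12341 TPM in the day 0 libraries, 23786, 14964 and 12273 TPM in the day 3 libraries, and 47191, 48538 and 50853 TPM in the day 9 libraries. Day 3 replicate 1, with the high cartilage and bone sum, was above all day 0 libraries, replicate 3 lay in the day 0 range, and replicate 4 was just below it. The part of cartilage and bone in these sums was not tested. Cargo transcripts per chaperone or isomerase transcript numbered 6.86, 6.94 and 5.02 in the day 0 libraries, 6.73, 3.495 and 3.21 in the day 3 libraries, and 11.2, 11.1 and 12.7 in the day 9 libraries. By these sums, the folding genes were already high at day 3 while the matrix sum was above the day 0 range in all libraries only at day 9. The day 3 rise of the macrophage markers stands beside that of the folding genes, and their part in it was not tested.

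**Figure D4:**
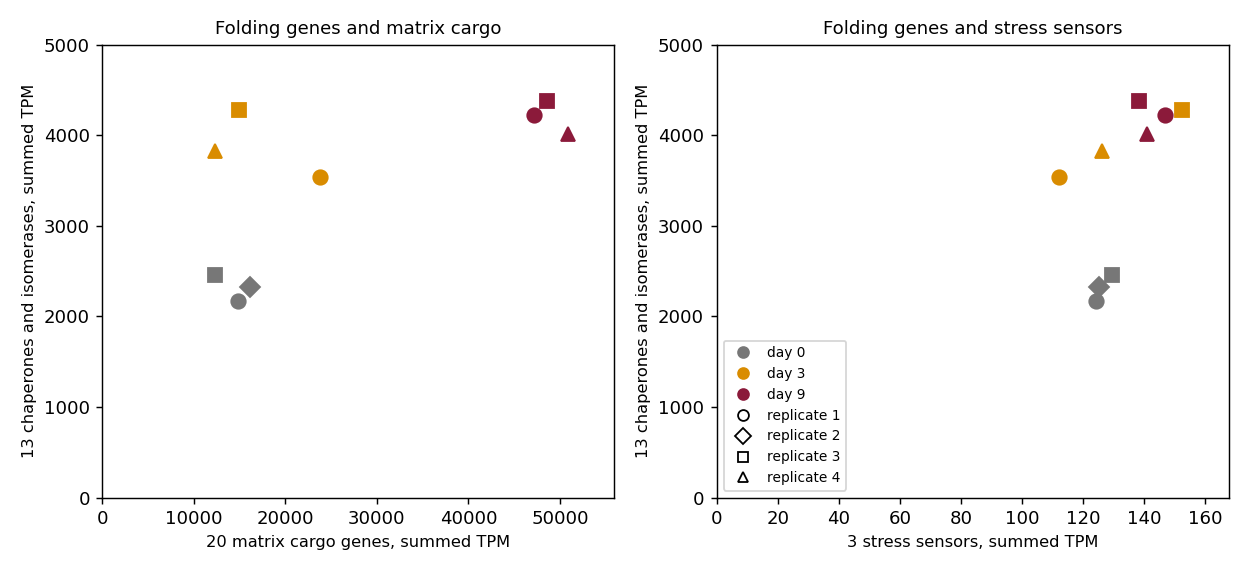
Summed TPM of 13 chaperones and isomerases (y axis) against the summed TPM of 20 matrix cargo genes (left) and of 3 stress sensors (right), 1 point per library, coloured by day. Day 3 points sit above day 0 at a similar cargo level except replicate 1, and day 9 points lie far to the right, from 47191 TPM up. The sensor sums lie between 112 and 152.4 TPM, both at day 3. Those of day 9 (138.4 to 146.9 TPM) are all above those of day 0 (124.3 to 129.6 TPM).

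Genes of the same pathway outside the 36 were read from lists of 126 further genes, of which 125 were tested. Together 46 (36.8%) rose and 1 (0.8%) fell at day 3 over day 0, against 12.9% and 3.29% of all genes. By day 9, 55 (44%) were higher than at day 0 and 2 (1.6%) lower, against 15.2% and 5.54%. Between day 9 and day 3, 6 rose and 6 fell, 4.8% each, close to the 5.19% and 3.66% of all genes. The median log2 fold changes were 0.35 at day 3 over day 0, 0.32 at day 9 over day 0 and 0.02 at day 9 over day 3. The day 3 count was 20, 21 or 24 without day 0 replicate 1, 2 or 3 and 27 or 25 without day 9 replicate 1 or 4, and the day 9 count over day 0 was 32 or 36 without day 0 replicate 1 or 2. Over all genes, the same fits called 687, 786 or 897 and 1264 or 1033 higher at day 3, and 1381 or 1420 at day 9. Without day 3 replicate 3, 3 of the listed genes fell at day 3 and 8 at day 9, both over day 0, against 2624 and 2221 of 14977 genes. Counts after day 3 ran between extremes of 0 higher and 1 lower without day 9 replicate 4 and 18 higher and 14 lower without day 3 replicate 3. The counts of all genes moved likewise. In the first fit 270 rose and 85 fell of 15000 genes, and in the second 2450 rose and 1648 fell of 14977.

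Of 25 further folding genes, 11 (44%) rose at day 3 and 19 (76%) at day 9 over day 0, against 12.9% and 15.2% of all genes. None fell by edgeR, with 1 lower at day 9 by DESeq2 and at an unadjusted p under 0.05. Fkbp11, a prolyl isomerase of secretory cells, rose 5.675-fold at day 3 and 4.78-fold at day 9, to 10.9 ± 3.93 and 9.14 ± 1.18 CPM, against 1.91 ± 0.10 CPM at day 0. Ero1a, the oxidase that recharges the isomerases, rose 2.35-fold at day 3, and Creld2, a gene induced by ER stress in cultured cells, rose 2.21-fold. At day 9, Fkbp10, a prolyl isomerase that assists collagen, was 3.31-fold above day 0. Serpinh1, the collagen chaperone Hsp47, rose 1.60-fold between day 3 and day 9 (adjusted p = 0.0381). The day 3 count of this list was 6 or 7 without day 9 replicate 1 or 4 or any single day 0 library.

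Of 23 genes of the translocon, signal peptidase and N-glycosylation, 16 (69.6%) rose at day 3 and 14 (60.9%) at day 9 over day 0. The shares of all genes were 12.9% and 15.2%. None of the 23 fell by edgeR, with 1 lower at day 9 at an unadjusted p under 0.05 and 0 by limma-voom or DESeq2. Ostc, a subunit of the oligosaccharyltransferase, rose 1.92-fold at day 3, and Tram2, a translocon protein, rose 2.03-fold at day 9. The day 3 count fell to between 8 and 10 without day 9 replicate 1 or 4 or any single day 0 library, and the day 9 count to 9 when day 0 replicate 1 or 3, or day 9 replicate 3, was left out. Of 25 genes of ER to Golgi transport, 8 (32%) rose at day 3 and 11 (44%) at day 9 over day 0, against 12.9% and 15.2% of all genes. Tmed3, a cargo receptor, was 1.72-fold and 2.14-fold higher. At day 3 the count was 1 to 5 without any library other than day 3 replicate 3, and the day 9 count was 4 to 6 without day 9 replicate 1 or 3 or any single day 0 library.

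Of 15 further genes of ER-associated degradation, 3 (20%) rose at day 3, against 12.9% of all genes, and 4 (26.7%) rose and 1 fell at day 9, against 15.2% and 5.54%, both over day 0. The day 3 count was 0 without day 0 replicate 1 or 2 or day 9 replicate 4, and 1 without day 0 replicate 3. The day 9 count was 1 without day 0 replicate 1 or 2 and 2 without any 1 of the day 9 libraries, and 0 to 2 fell depending on the library left out. Edem2, a relative of Edem1, was 2.195-fold higher at day 9 than at day 0. Of 25 further genes of the Atf4 and amino acid response, 6 (24%) rose and 1 fell at day 3, against 12.9% and 3.29% of all genes, and 3 (12%) rose and 1 fell at day 9, against 15.2% and 5.54%, both over day 0. The share that rose at day 9 was thus near that of all genes. Those that rose at day 3 numbered 3 without day 0 replicate 2 and 9 without day 3 replicate 3, and without that library 4 fell at day 9. In that last fit 2221 of 14977 genes fell at day 9 over day 0. Slc7a11, the cystine transporter, rose 8.46-fold at day 3 and 10.6-fold at day 9, and Psat1, of serine synthesis, rose 2.80-fold at day 3. Gdf15, a secreted stress cytokine, was 4.46-fold higher at day 9 than at day 0 (adjusted p = 0.00326) and 3.21-fold higher at day 9 than at day 3 (adjusted p = 0.0224), with means of 1.55 ± 0.544 CPM at day 0, 2.15 ± 0.17 CPM at day 3 and 6.94 ± 2.01 CPM at day 9. Slc7a11 and Gdf15 thus rose at day 9, where none of the 4 Atf4 targets among the 36 did. Ddit4, an mTORC1 inhibitor, was 5.26-fold lower at day 9 than at day 0. Eif4ebp1, a brake on translation, rose 2.695-fold at day 3 and was 3.31-fold lower at day 9 than at day 3. Of 12 other stress kinases and regulators, 2 (16.7%) rose at day 3, against 12.9% of all genes, and 4 (33.3%) at day 9, against 15.2%, both over day 0, among them Eif2ak2, the kinase PKR, by 1.52-fold and 1.69-fold. Without day 0 replicate 1 or 2 none rose at day 3, and the count was 1 without day 0 replicate 3 or any 1 of the day 9 libraries and 4 without day 3 replicate 3. The day 9 count was 1 without day 0 replicate 3 and 2 without day 0 replicate 1 or 2 or any 1 of the day 9 libraries.

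**Figure D5:**
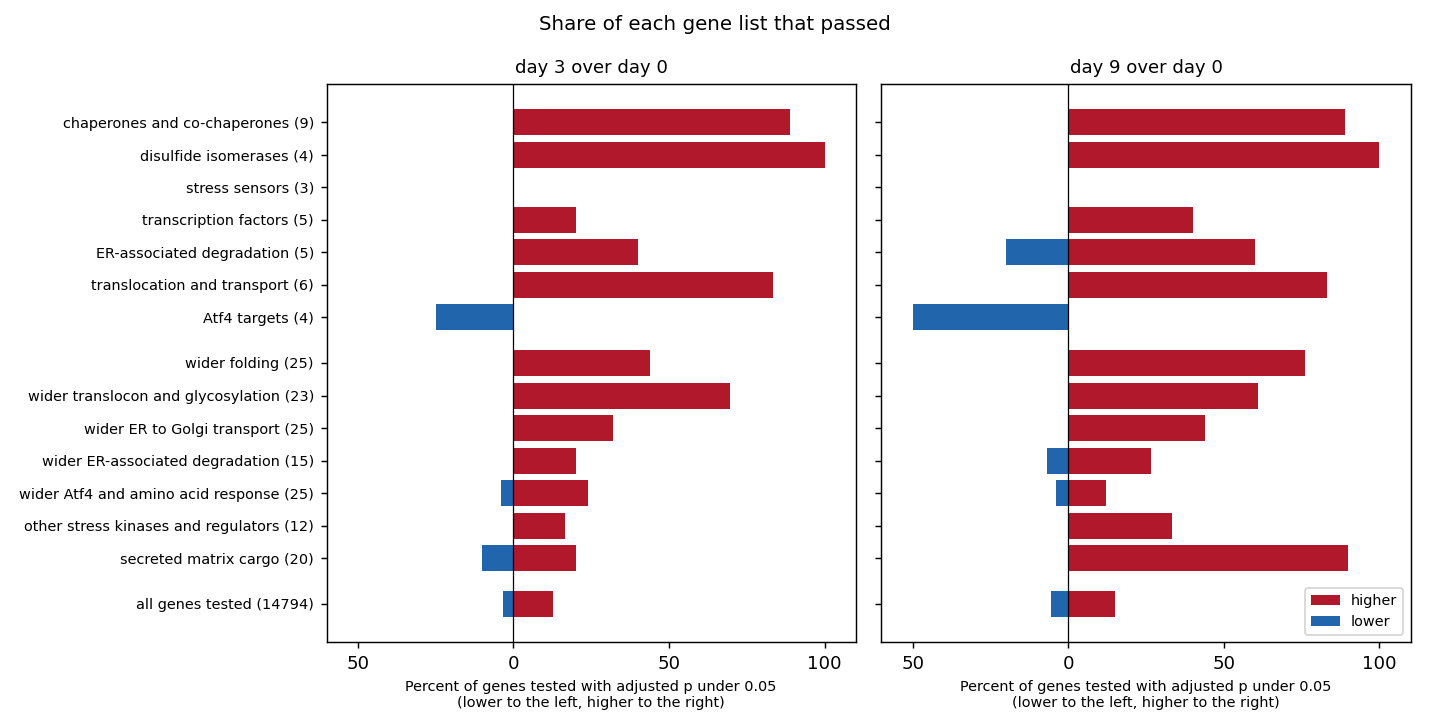
Percent of each gene list with an edgeR adjusted p under 0.05, higher to the right and lower to the left, at day 3 over day 0 (left panel) and day 9 over day 0 (right panel), with the number of genes tested in brackets. The member lists of chaperones, isomerases, and translocation and transport stand at 83.3% or above on both days. The wider list of ER to Golgi transport stands at 32% at day 3 and 44% at day 9. Of the matrix cargo genes, 20% are higher at day 3 and 90% at day 9.

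The authors' deposited table gives its own log2 fold changes and FDR for the same comparisons. At a threshold of 0.05 it called 11 of the 36 genes higher and 1 lower at day 3 over day 0, and 13 higher and 3 lower at day 9 over day 0. All of these were among the edgeR calls in the same direction. At day 9 over day 3 the authors' deposited table called Sec24d higher and Chac1 lower, the second with an FDR of 0.0077 where edgeR gave an adjusted p of 0.129.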

How the data were processed

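The 9 libraries were measured by poly(A)-selected RNA sequencing. The authors deposited 1 table with a read count per gene and library, TPM per library, and their own log2 fold changes with FDR-adjusted p-values, per the file headers. The sources used here name no aligner, counter or TPM method, and no library strand, so reads of overlapping and antisense genes cannot be told apart. GRCm38 and mm10 are named in the submitters' processing notes, but 551 of 25597 gene identifiers have the same coordinates in GENCODE M21, so none are given from the table.

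Counts were tested with edgeR 4.0.16 in R 4.3.3 (TMM factors, filterByExpr by day leaving 14794 genes, quasi-likelihood F test over all 9 libraries with 1 mean per day, two-sided, 6 residual degrees of freedom). Adjusted p-values are Benjamini-Hochberg over all genes tested. CPM used TMM-scaled library sizes, and the SE of a log2 fold change was taken from its F statistic. Library totals of 12769059 or more limit the precision for the lowest genes. Alternatives were relative log expression size factors, no filter, the replicate number as a block, only the 6 libraries of the days compared, each library left out, limma-voom 3.58.1 and DESeq2 1.42.0. The procedure was tested on simulated data.

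The members and gene lists were chosen with earlier results of these data known. All 36 members are named, and of each other list the text names genes from the 3 largest changes among those that passed. Promoters came from RefSeq for GRCm38.p6, and only the 250 bases upstream were searched. Of the 30 matched starts, 25 were found in sense in GENCODE transcripts. Within a day, libraries differed by a chi-square per degree of freedom of 8.35 to 147. Each library was counted once, but these values cannot show that the libraries came from separate mice.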

Additional observations from a re-analysis of the deposited data

How the results depend on the processing

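Most of what moved were counts, and in each of the 9 single-library omissions the direction of every called gene was kept. Left out 1 at a time, the libraries gave 10 to 20 members higher and 1 to 3 lower at day 3 over day 0, where 20 and 1 were called with all libraries. They gave 0 to 6 higher and 0 to 2 lower at day 9 over day 3, where 1 and 0 were called. Over all genes, the same fits gave 687 to 2555 higher and 131 to 2624 lower at day 3 over day 0. At day 9 over day 3 they gave 270 to 2450 higher and 85 to 1648 lower. Of the 21 members called at day 3 over day 0, 11 held whichever library was left out, and 19 of the 25 members called at day 9 over day 0 did. With only the 6 libraries of the days compared, 10 members were higher at day 3 over day 0 and 0 at day 9 over day 3, against 749 of 14569 and 167 of 14300 genes. DESeq2 called 5 members higher and 2 lower at day 9 over day 3, against 1368 and 1033 of 14794 genes. With the replicate block, 2 were higher and 0 lower at day 3 over day 0, 9 higher and 1 lower at day 9 over day 0, 0 higher at day 9 over day 3, and 4 differed between any days. Replicate numbers are not said to pair mice. Deviations from the day means correlated between -0.248 and 0.472 for same-numbered libraries of different days, and between -0.596 and 0.516 for the others. With 3 libraries per day these values cannot decide whether same-numbered libraries share a batch. The block also takes up residual degrees of freedom. Over all genes it left 186 higher and 28 lower at day 3 over day 0, 777 higher and 123 lower at day 9 over day 0, and 82 higher at day 9 over day 3.

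Only members that were not called changed sign, in 17 comparisons. By leaving out 1 library, the log2 fold change at day 9 over day 3 spanned -0.12 to 0.085 for Hspa5, -0.15 to 0.055 for Canx, -0.18 to 0.037 for Hyou1, -0.21 to 0.0055 for Dnajb11, -0.053 to 0.23 for Pdia4, -0.21 to 0.0057 for Pdia6, -0.12 to 0.020 for P4hb, -0.020 to 0.31 for Ern1, -0.23 to 0.12 for Atf6, -0.10 to 0.19 for Sec23a and -0.12 to 0.27 for Trib3. At day 3 over day 0 it spanned -0.26 to 0.12 for Dnajc3, -0.24 to 0.12 for Atf6, -0.24 to 0.12 for Ddit3, -0.24 to 0.050 for Sec23a and -0.024 to 0.31 for Asns. At day 9 over day 0 it spanned -0.12 to 0.010 for Sec23a. Dnajc3 at day 3 over day 0 was 0.053 with the replicate block. Ddit3 at day 3 over day 0 was -0.046 with relative log expression size factors, -0.052 with the 6 libraries of those days and -0.044 with DESeq2. The cause of these shifts was not tested.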
